A study of Mus musculus with 32 samples.

Results

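Solute carriers were examined in synovium and cartilage of C57BL/6 mice, an inbred laboratory strain. The members are every gene of the deposited tables whose symbol begins with Slc followed by a digit. There were 34 such genes among the 1178 listed for synovium and 24 among the 1606 listed for cartilage, which makes 54 of the 2544 genes in either table. Only 4 of the 54 were in both tables. One of them, Slc9a3r2, keeps an Slc symbol but encodes a PDZ scaffold protein that binds transporters and is not itself a carrier. RNA sequencing covered 18 synovium samples, 3 each of MMS D3, MMS D7, MMS D14, R1, R2 and Control. It covered 14 cartilage samples, 2 each of the same groups and of MMS D28. What MMS, R1 and R2 stand for, and the unit of the number after D, are not in the labels, and these names are kept. The labels give no genotype, sex or age for a group here, and do not say whether replicates were separate animals, so p-values measure only the spread between samples.

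Solute carriers are membrane proteins that move small molecules across cell and organelle membranes without splitting ATP themselves. Their cargo includes sugars, amino acids, metals, nucleosides and the intermediates exchanged between mitochondria and cytosol. Synovium is the lining and fatty connective tissue of the joint, where fat cells take up glucose, amino acids and fatty acids through such carriers. Chondrocytes, the cells of cartilage, live without blood vessels and depend on glucose uptake and lactate export.

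Synovium values are FPKM, fragments scaled by gene length and library size, and cartilage values are a normalised signal of unstated unit, so levels are not compared between tissues. Read depth is not in the tables and is unknown. Each change is a difference in log2(value + 1) with its standard error, from a limma fit of all groups of a tissue. A call is a Benjamini-Hochberg adjusted p under 0.05 over all genes of the table. Both tables hold selected genes. In synovium 34 of 34 Slc genes and 98% of all genes differed at least 1.5-fold between MMS D14 and Control. The same held in cartilage for 24 of 24 Slc genes and 99% of all genes when MMS D28 was set against Control. A call in either of these comparisons therefore says little beyond direction and size. In synovium 5 libraries, replicate 3 of MMS D3, MMS D7, MMS D14, R2 and Control, stood apart by low Gm2023 (1.71 to 3.36 FPKM, against 12.59 to 56.19 in the other 13). No Slc gene separated these 5 from the other 13, and 4 of the 197 Slc calls in synovium ended without them. Adipocyte markers were abundant in synovium, with 12 of 12 measured. Their summed level was 4721 to 7597 FPKM in MMS D14, 12384 to 13638 in MMS D7 and 13230 to 22526 in MMS D3, against 26872 to 32260 in Control. Other marker lists moved too. All 3 measured fibroblast markers were higher in MMS D14, with a sum of 11150 to 13130 FPKM against 2029 to 2296 in Control. All 4 measured cell cycle markers were higher, with 47.7 to 90.1 FPKM against 6.64 to 7.51. Of 5 measured synovial lining markers 4 were lower, with 339 to 435 FPKM against 619 to 798, and the 1 measured endothelial marker was lower, with 8.12 to 11.1 against 22.2 to 26 FPKM. All 5 measured erythroid markers were lower, with 962 to 2608 FPKM against 3497 to 4831. The 1 measured macrophage marker was lower, with 31.2 to 42.7 against 103 to 117 FPKM. Osteoblast and osteoclast markers went in both directions, and the 1 measured skeletal muscle marker was not called. The part of these cells in the Slc changes was not tested. In bulk tissue, fewer cells of a type and less RNA per cell cannot be told apart.

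More Slc genes of synovium fell than rose in each MMS group, and the median change was larger in each later group. The same order held for all genes of the table. Of these 49.7%, 82.5% and 98% differed at least 1.5-fold from Control in MMS D3, MMS D7 and MMS D14. A course that is largest in MMS D14 therefore says little about Slc genes in particular. In MMS D3, 5 of 34 Slc genes rose and 15 fell against Control, beside 16.3% of all genes higher and 39.6% lower. In MMS D7, 5 rose and 26 fell, beside 24.1% higher and 61.6% lower. All 34 were called in MMS D14, 6 higher and 28 lower, beside 27.7% higher and 69.3% lower. The median change of the Slc genes was -0.33, -0.79 and -1.27 in the 3 groups, and that of all genes was -0.34, -0.65 and -1.08. In MMS D3 the Slc share of calls was thus close to that of the table as a whole. In MMS D7 and MMS D14 a larger share of Slc genes fell and a smaller share rose than of all genes. This difference in share was not tested. The summed level of the 34 genes was 1999 to 2271 FPKM in Control, 1414 to 1691 in MMS D3, 927 to 1234 in MMS D7 and 659 to 747 in MMS D14. Centring each sample on its median moved every change up by 0.12, 0.28 and 0.52 in these comparisons. After it 5 Slc genes rose and 10 fell in MMS D3, 6 rose and 20 fell in MMS D7, and 6 rose and 24 fell in MMS D14. Of all 1178 genes 220 then rose and 360 fell in MMS D3, 308 and 553 in MMS D7, and 335 and 678 in MMS D14.

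**Figure D1:**
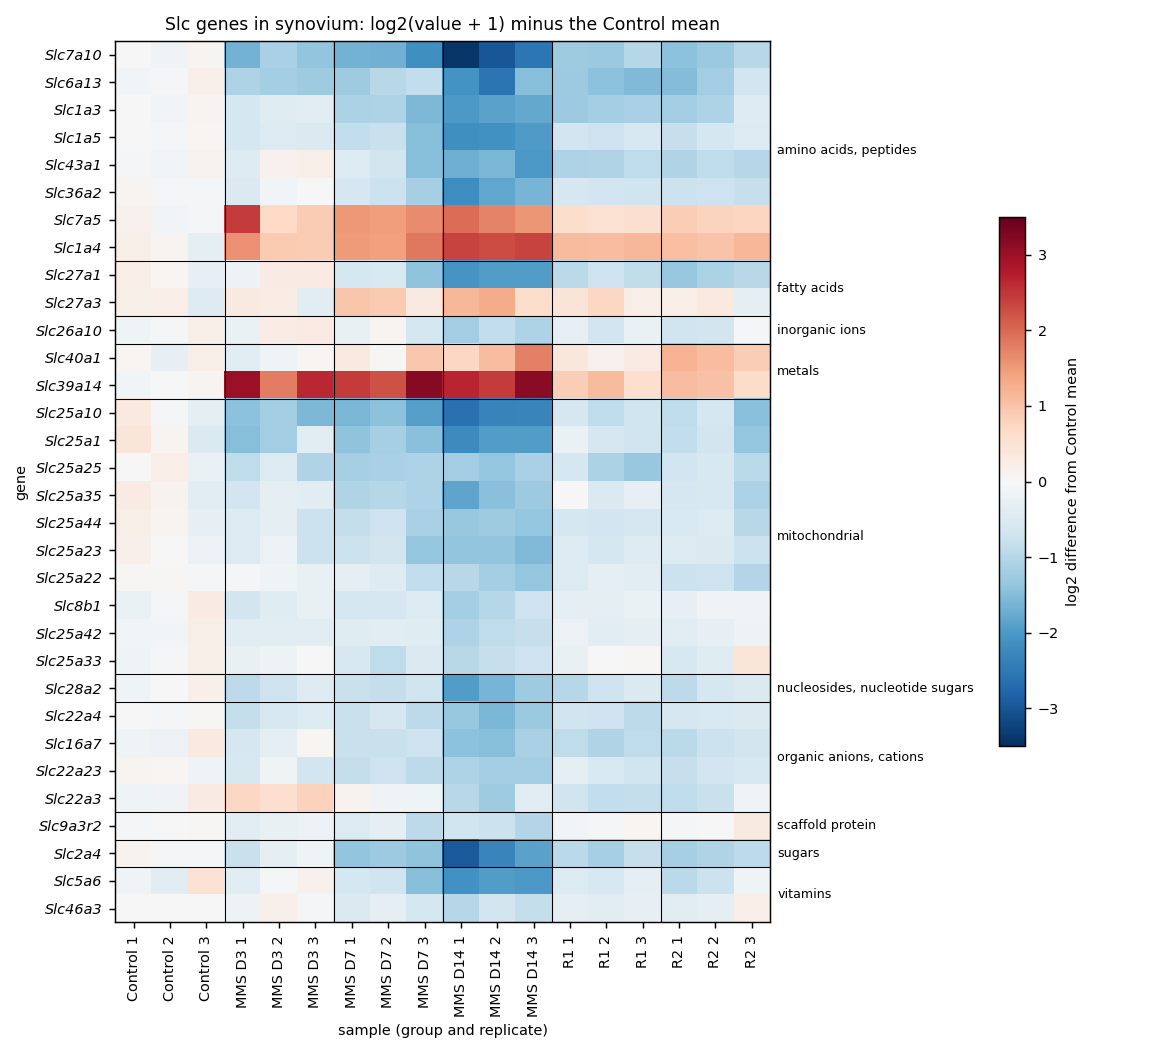
Slc genes of synovium described in the text, by class (rows) in each of 18 samples (columns), as log2(FPKM + 1) minus the mean of the 3 Control samples; red is higher and blue lower than that mean. The mitochondrial rows are blue across MMS D14, while Slc39a14, Slc7a5 and Slc1a4 are red in every MMS sample.

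Amino acid carriers made up 8 of the synovium genes, and they moved in opposite directions. Slc7a5, which encodes LAT1, the exchanger that brings large neutral amino acids such as leucine into cells, and Slc1a4, which encodes the neutral amino acid exchanger ASCT1, rose in all 3 MMS groups. The other 6 fell in MMS D7 and MMS D14, where 61.6% and 69.3% of all genes were lower. Slc1a4 had 6.31, 5.85 and 4.15 FPKM in Control, 18.17, 11.07 and 10.81 in MMS D3, 17.05, 16.21 and 21.84 in MMS D7, and 31.77, 30.07 and 31.75 in MMS D14. Every MMS sample lay above every Control sample, with changes of 1.14 ± 0.19, 1.59 ± 0.19 and 2.34 ± 0.19 (limma adjusted p = 0.00019, 4.0e-06 and 1.3e-08). Slc7a5 had 2.60, 2.02 and 2.17 FPKM in Control, 16.60, 4.31 and 5.02 in MMS D3, 8.38, 7.99 and 9.20 in MMS D7, and 11.56, 9.90 and 8.50 in MMS D14. One library, MMS D3 replicate 1, held the highest Slc7a5 level of all, and the change in MMS D3 was 1.34 ± 0.30 with it (limma adjusted p = 0.0016) and 0.80 without it, still called. In MMS D7 and MMS D14 Slc7a5 changed by 1.55 ± 0.30 and 1.75 ± 0.30 (limma adjusted p = 0.00020 and 3.0e-05).

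Slc1a4 lies on chromosome 11 (GRCm38, 20302180 to 20332713, minus strand), and its promoter is printed because the gene rose in every MMS group and the promoter holds the motif named below. The 300 bases run 5′ to 3′ on the minus strand, chr11:20332664-20332963, from 250 bases before to 50 after the RefSeq start (RefSeq, GRCm38.p6). Capitals mark the only match to the C/EBP-ATF response element, TGATGNAA, searched on both strands.
Slc1a4: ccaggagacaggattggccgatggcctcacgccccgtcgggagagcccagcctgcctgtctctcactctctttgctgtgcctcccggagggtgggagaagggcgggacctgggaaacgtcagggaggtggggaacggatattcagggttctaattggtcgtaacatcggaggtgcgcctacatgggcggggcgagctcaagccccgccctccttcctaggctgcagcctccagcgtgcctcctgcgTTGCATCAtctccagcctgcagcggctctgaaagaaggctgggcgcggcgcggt
The match lies on the opposite strand to the gene and begins 4 bases before the start. Of 32851 mouse promoters of the same length 1304 (3.97%) held this motif, and so did 2 of the 62 promoters of Slc genes, those of Slc1a4 and Slc26a10. Of the 54 Slc genes 38 had a promoter in the table. A match to these letters is a description of the sequence and does not show that a factor binds there.

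The amino acid carriers that fell included the most abundant Slc gene of the table. Slc1a5, which encodes the glutamine carrier ASCT2, had 666.0, 637.3 and 693.5 FPKM in Control, 436.0, 476.8 and 469.7 in MMS D3, 368.2, 386.7 and 235.0 in MMS D7, and 149.4, 151.0 and 166.9 in MMS D14. Its groups did not overlap with Control at any time, and the change reached -2.09 ± 0.17 in MMS D14 (limma adjusted p = 1.3e-08). Slc7a10, which encodes Asc-1, a small neutral amino acid carrier known as a surface protein of fat cells, changed most of all Slc genes in MMS D14. It had 151.4, 135.4 and 160.1 FPKM in Control, 46.98, 67.28 and 56.81 in MMS D3, 46.71, 45.71 and 33.10 in MMS D7, and 13.15, 17.73 and 25.12 in MMS D14. The changes were -1.38 ± 0.21, -1.82 ± 0.21 and -2.97 ± 0.21 (limma adjusted p = 0.00010, 3.7e-06 and 5.2e-09). For comparison, the median change of the 12 adipocyte markers was -0.61, -1.23 and -2.47 in the same groups; the part of fat cells in these falls was not tested.

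The remaining amino acid carriers differed in when they fell. Slc6a13, the GABA and taurine carrier GAT2, already fell in MMS D3, with 4.74, 4.29 and 4.05 FPKM in MMS D3 against 10.24, 10.40 and 12.59 in Control (change -1.17 ± 0.23, limma adjusted p = 0.00080), and reached -2.05 ± 0.23 in MMS D14. Slc36a2, the proton-coupled carrier PAT2 of small amino acids, had 65.12, 86.27 and 93.07 FPKM in MMS D3 against 98.67, 89.18 and 90.60 in Control, which overlapped (change -0.20 ± 0.17, limma adjusted p = 0.33). It then fell by 0.83 in MMS D7 and 1.87 in MMS D14. Slc43a1, the neutral amino acid carrier LAT3, showed the same order, with -0.03 ± 0.23 in MMS D3 (limma adjusted p = 0.93), -0.87 in MMS D7 and -1.77 in MMS D14. Its change in MMS D7 was -0.55 without MMS D7 replicate 3 and was still called (limma adjusted p = 0.0024 with it). Slc1a3, the glutamate carrier GLAST, fell by 0.48 in MMS D3, a call that ended without any 1 of 5 libraries (Control replicates 1, 2 and 3 and MMS D3 replicates 1 and 2, limma adjusted p = 0.0512 to 0.111) and after centring (0.0861). In MMS D14 it had 16.91, 18.42 and 19.75 FPKM against 70.14, 66.04 and 75.57 in Control.

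The metal carriers of the synovium table were Slc39a14 and Slc40a1, and both were higher in MMS D14. Slc39a14 encodes ZIP14, which imports zinc, manganese and iron that is not bound to transferrin, and it rose more than any other Slc gene. It had 5.55, 6.11 and 6.45 FPKM in Control, 56.28, 23.21 and 42.74 in MMS D3, 37.45, 31.69 and 62.82 in MMS D7, and 43.86, 37 and 61.73 in MMS D14. The lowest MMS sample lay well above the highest Control sample, and MMS D3 already overlapped with MMS D14. The changes were 2.48 ± 0.29, 2.62 ± 0.29 and 2.76 ± 0.29 (limma adjusted p = 8.2e-06, 2.7e-06 and 2.1e-07). Slc40a1, the iron exporter ferroportin, followed another course, with 1.46, 1.93 and 2.38 FPKM in MMS D3 against 2.42, 1.68 and 2.73 in Control. It had 4.37, 5.85 and 10.03 FPKM in MMS D14, above all Control samples (change 1.19 ± 0.25, limma adjusted p = 0.00022). In MMS D3 and MMS D7 its change did not pass the test (-0.16 ± 0.25 and 0.45 ± 0.25).

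**Figure D2:**
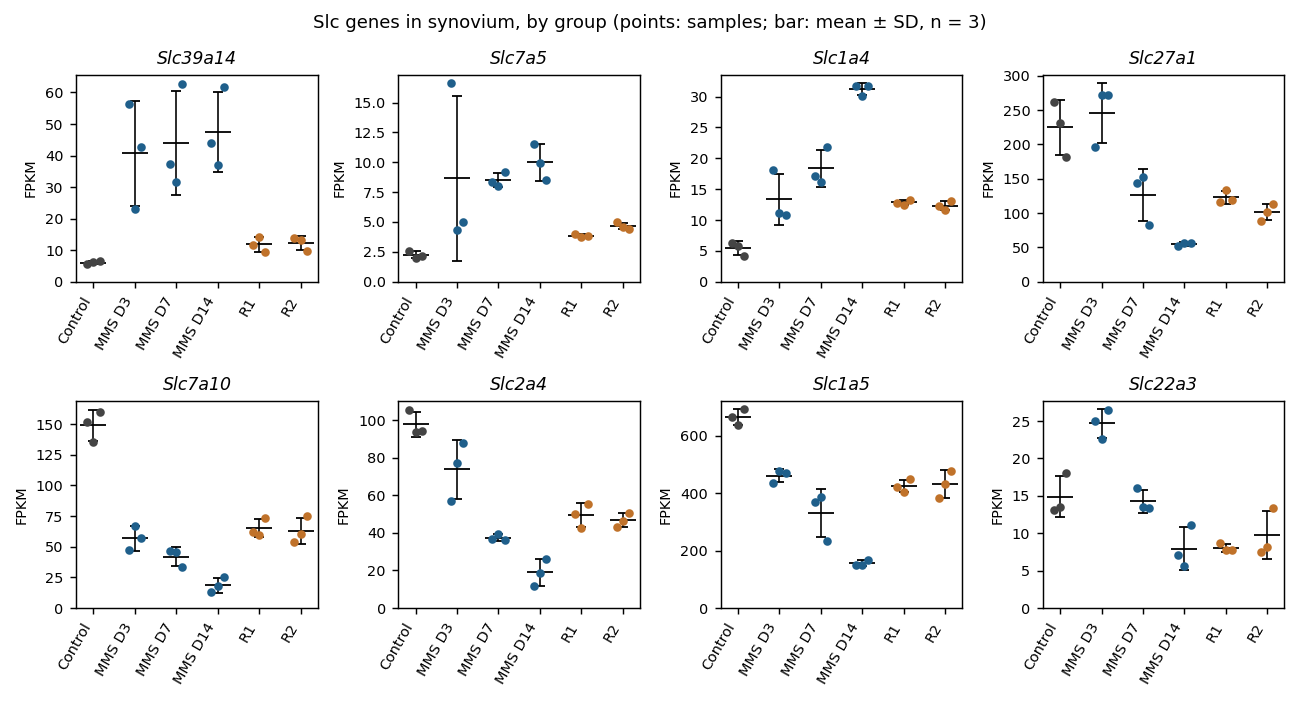
FPKM (vertical axis, linear from 0) of 8 Slc genes in the 6 synovium groups, with points for samples and bars for mean ± SD (n = 3). Slc39a14 is already high in MMS D3, Slc1a4 is highest in MMS D14, and Slc22a3 is above Control in MMS D3 and below it in MMS D14.

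Of the 5 carriers of organic anions, organic cations and monocarboxylates 4 fell and 1 rose in MMS D14, beside 69.3% and 27.7% of all genes. Slc22a3, the organic cation carrier OCT3 of monoamines, was higher than Control in MMS D3 and lower in MMS D14. It had 24.97, 22.60 and 26.47 FPKM in MMS D3 against 13.15, 13.49 and 18.05 in Control (change 0.70 ± 0.22, limma adjusted p = 0.014), a call that ended without Control replicate 1 (0.0534). In MMS D14 it had 7.06, 5.6 and 11.13 FPKM (change -0.87 ± 0.22, limma adjusted p = 0.0013), and that call ended after centring (0.149). MMS D3 and MMS D14 were not compared with each other. Slc22a4, the ergothioneine carrier OCTN1, fell in each MMS group, by 0.62, 0.77 and 1.41. Slc16a7, the monocarboxylate carrier MCT2, fell in MMS D7 and MMS D14, by 0.77 and 1.36, and Slc22a23 did so by 0.82 and 1.14. Slc22a23 was also lower in MMS D3 (-0.46, limma adjusted p = 0.0167). That call ended after centring (0.051) and without single libraries of MMS D3 or Control. Emb, which encodes the embigin chaperone of MCT2, went the other way, with 37.4 ± 1.49 FPKM in MMS D14 and 6.36 ± 0.560 in Control (SD, n = 3 each; change 2.39, limma adjusted p = 3.7e-09).

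Mitochondrial carriers were the largest class, with 11 genes, 10 of the SLC25 family and the mitochondrial sodium and calcium exchanger gene Slc8b1. In MMS D3 8 of the 11 fell, and in both MMS D7 and MMS D14 all 11 fell, with class medians of -0.48, -0.90 and -1.24. Of all genes 39.6%, 61.6% and 69.3% were lower in these comparisons, with medians of -0.34, -0.65 and -1.08. Slc25a1 encodes the citrate carrier, which exports citrate for fatty acid synthesis. It had 337.6, 271.3 and 176.5 FPKM in Control, 89.06, 108.4 and 191.0 in MMS D3, 94.17, 111.5 and 90.55 in MMS D7, and 53.28, 64.71 and 64.46 in MMS D14. Replicate 3 was the highest of MMS D3 and the lowest of Control, so these groups overlapped (change -1.04 ± 0.27, limma adjusted p = 0.0044), and without the 5 libraries that stand apart the change was -1.61. Slc25a10, the dicarboxylate carrier that exchanges malate and succinate for phosphate, had 37.08, 43.40 and 33.75 FPKM in MMS D3 against 130.9, 100.1 and 82.86 in Control, with no overlap. Its changes were -1.42 ± 0.21 in MMS D3, -1.66 ± 0.21 in MMS D7 and -2.42 ± 0.21 in MMS D14 (limma adjusted p = 9.0e-05, 7.2e-06 and 3.1e-08).

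The other mitochondrial carriers fell by less. In MMS D14 their changes lay between -0.83 (Slc25a33, the pyrimidine nucleotide carrier) and -1.52 (Slc25a35). Slc25a23 and Slc25a25, carriers of ATP-magnesium and phosphate, fell by 1.44 and 1.23, and Slc25a44, a carrier of branched-chain amino acids, by 1.31. Slc25a22, a glutamate carrier, had 20.27, 17.47 and 15.35 FPKM in MMS D14, against 41.99, 42.02 and 39.23 in Control. In MMS D3 its change did not pass the test (-0.15 ± 0.15, limma adjusted p = 0.43). Slc25a22, Slc25a23 and Slc25a44 were each lowest in the set-apart library of their group in 5 of 5 groups, and Slc25a33 was highest there in 5 of 5. After centring, the falls of Slc25a22, Slc25a33, Slc25a42 and Slc8b1 in MMS D7 no longer passed the test (limma adjusted p = 0.139, 0.127, 0.347 and 0.0997), and in MMS D14 that of Slc25a33 did not (0.173). Slc25a42, a carrier of coenzyme A, lost its call in MMS D7 without Control replicate 3 as well (0.0503). In MMS D3 the calls of Slc25a23, Slc25a42, Slc25a44 and Slc8b1 each ended without single libraries of MMS D3 or Control, at a highest adjusted p of 0.134, 0.110, 0.0826 and 0.141. Centring also ended the MMS D3 calls of Slc25a23, Slc25a42 and Slc8b1 (limma adjusted p = 0.0868, 0.0966 and 0.0857). That of Slc25a42 ended as well without the 5 libraries that stand apart (0.0771).

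Slc2a4, which encodes GLUT4, the insulin-regulated glucose carrier of fat and muscle, was the only sugar carrier in the synovium table. It had 105.7, 93.81 and 94.18 FPKM in Control, 56.79, 77.11 and 87.99 in MMS D3, 36.69, 39.59 and 36.24 in MMS D7, and 11.93, 18.86 and 26.06 in MMS D14. All samples of the MMS groups lay below Control, but the change in MMS D3 did not pass the test (-0.42 ± 0.21, limma adjusted p = 0.10). In MMS D7 and MMS D14 it fell by 1.36 and 2.37 (limma adjusted p = 3.7e-05 and 3.9e-08). Hk2, the hexokinase that phosphorylates imported glucose in muscle and fat, was also lower in MMS D14, with 5.94 ± 1.01 FPKM against 13.2 ± 2.29 in Control (SD, n = 3 each; change -1.03, limma adjusted p = 1.8e-05).

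The fatty acid transport proteins went in opposite directions. Slc27a1, which encodes FATP1 of fat and muscle, had 261.7, 231.2 and 181.6 FPKM in Control, 196.1, 271.6 and 271.7 in MMS D3, 144.1, 152.2 and 83.12 in MMS D7, and 52.07, 56.18 and 56.65 in MMS D14. MMS D3 overlapped with Control (change 0.13 ± 0.21, limma adjusted p = 0.60), and the change was -0.86 ± 0.21 in MMS D7 and -2.0 ± 0.21 in MMS D14 (0.0013 and 1.7e-07). Slc27a3, which encodes the acyl-CoA synthetase family member FATP3, had 20.85, 23.35 and 14.12 FPKM in MMS D14 against 10.37, 10.64 and 6.22 in Control (change 1.02 ± 0.27, limma adjusted p = 0.0016). In each of the 5 groups with a set-apart library, that library held the lowest Slc27a3 level, lower by 0.64 on the log2 scale on average. The rise of 0.74 in MMS D7 lost its call without Control replicate 3 (0.104), MMS D7 replicate 1 (0.0692) or MMS D7 replicate 2 (0.0610). The fatty acid partners Cd36, a fatty acid receptor, and Lpl, lipoprotein lipase, were lower in MMS D14, with 171 ± 35.1 and 188 ± 82.3 FPKM there against 573 ± 84.9 and 772 ± 111 in Control (SD, n = 3 each).

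Single carriers of other cargo were also lower in MMS D14. Slc5a6, the multivitamin carrier of biotin and pantothenate, had 3.32, 3.78 and 3.61 FPKM in MMS D14 against 16.17, 13.14 and 25.60 in Control (change -2.03 ± 0.26, limma adjusted p = 1.8e-06). In MMS D3 its change did not pass the test (-0.10 ± 0.26), and its fall of 0.93 in MMS D7 was -0.39 without the 5 libraries that stand apart (limma adjusted p = 0.0041 and 0.0446). Slc28a2, the concentrative nucleoside carrier CNT2, had 3.20, 4.24 and 5.82 FPKM in MMS D14 against 13.58, 15.06 and 17.42 in Control (change -1.61 ± 0.19). Of the 50-base windows of its longest transcript 39.8% also occur in the nearby copy Gm14085, so its reads may be shared with that gene. Slc46a3, a lysosomal carrier, and Slc26a10 fell by 0.82 and 1.06, and the scaffold gene Slc9a3r2 by 0.83. The calls of Slc46a3 and Slc9a3r2 ended after centring (limma adjusted p = 0.0635 and 0.0654).

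In R1 and R2, synovium Slc levels lay between those of MMS D14 and Control for most genes. Against MMS D14, 26 of 34 Slc genes were higher and 5 lower in R1, beside 63.2% of all genes higher and 25.8% lower. In R2 27 were higher and 5 lower, beside 63% higher and 25.5% lower. These comparisons share samples with each other and with MMS D14 against Control, in which nearly all listed genes differ. The median change of Slc genes was 0.69 in R1 and 0.73 in R2, and that of all genes was 0.65 and 0.64. Centring moved these changes by -0.34 and -0.30, after which 14 were higher and 6 lower in R1, and 19 higher and 5 lower in R2. Of all 1178 genes 474 were then higher and 331 lower in R1, and 518 higher and 326 lower in R2. Against Control, 3 Slc genes were higher and 20 lower in R1, beside 15.9% of all genes higher and 45.2% lower, and the median change was -0.51 for Slc genes and -0.38 for all genes. In R2 5 were higher and 21 lower, beside 15.7% higher and 45.1% lower, with medians of -0.63 and -0.38. After centring by 0.19 and 0.22 these counts were 4 higher and 16 lower in R1, and 5 higher and 18 lower in R2. They stood beside 245 higher and 419 lower of all 1178 genes in R1, and 252 and 365 in R2. Adipocyte markers summed to 13435 to 15167 FPKM in R1 and 13206 to 15120 in R2, which lay above all MMS D14 and below all Control samples.

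The genes that had risen in MMS D14 were closer to Control in R1 and R2. Slc39a14 had 11.77, 14.25 and 9.47 FPKM in R1 and 13.83, 13.19 and 9.87 in R2, below all MMS D14 samples (change against MMS D14 -1.90 ± 0.29 and -1.85 ± 0.29, limma adjusted p = 3.9e-05 and 4.5e-05). Against Control it was still higher, by 0.85 ± 0.29 in R1 and 0.91 ± 0.29 in R2 (limma adjusted p = 0.019 and 0.014). The call in R1 ended without Control replicate 1 (0.053) or R1 replicate 2 (0.0767), and that in R2 without R2 replicate 1 (0.0544). Slc1a4 remained higher than Control, with 12.83, 12.50 and 13.30 FPKM in R1 and 12.25, 11.60 and 13.11 in R2 (change 1.12 ± 0.19 and 1.06 ± 0.19), and these calls held under every alternative. Slc7a5 was above Control in all samples of R1 (3.97, 3.73 and 3.83 FPKM; change 0.57 ± 0.30, limma adjusted p = 0.10) and R2 (4.96, 4.62 and 4.44; 0.80 ± 0.30, 0.028). Only R2 passed the test, and it lost the call without Control replicate 2 or 3 or R2 replicate 1 or 2 (0.0593 to 0.0757).

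Slc40a1 differed from the other risers in R2. It had 6.52, 5.80 and 4.87 FPKM in R2 against 2.42, 1.68 and 2.73 in Control (change 1.04 ± 0.25, limma adjusted p = 0.0022). Against MMS D14 the R2 change was -0.14 ± 0.25 (limma adjusted p = 0.57). In R1 it had 3.26, 2.59 and 2.96 FPKM, lower than in MMS D14 (change -0.91 ± 0.25, limma adjusted p = 0.0029). R2 and R1 were not compared with each other. Slc27a3 was lower in R2 than in MMS D14 (-0.94 ± 0.27, limma adjusted p = 0.0039), while R1 did not pass the test (-0.56 ± 0.27, 0.057).

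Among the genes that had fallen, 10 of the 11 mitochondrial carriers were higher in R1 and 11 of 11 in R2 than in MMS D14, beside 63.2% and 63% of all genes. In R2 the call of Slc25a22 ended without MMS D14 replicate 2 or 3 or R2 replicate 1 or 2 (limma adjusted p = 0.0909 to 0.167), that of Slc25a25 without MMS D14 replicate 2 or R2 replicate 1 or 2 (0.0513 to 0.0728), and that of Slc25a33 without R2 replicate 3 (0.0703). After centring 6 of the 11 were called higher in R1 and 7 in R2, beside 474 and 518 of all 1178 genes. Slc25a1 had 214.7, 169.0 and 156.1 FPKM in R1 and 138.2, 161.7 and 98.98 in R2, all above MMS D14 (changes 1.54 ± 0.27 and 1.09 ± 0.27). Against Control it passed the test in R2 (-0.95 ± 0.27, limma adjusted p = 0.0068) and not in R1 (-0.50 ± 0.27, 0.11). Slc25a25 was the mitochondrial carrier that did not pass against MMS D14 in R1 (0.23 ± 0.19, limma adjusted p = 0.26), with 7.08, 4.75 and 3.94 FPKM there against 4.28, 3.82 and 4.62 in MMS D14. Against Control, 7 mitochondrial carriers were lower in R1 and 8 in R2, beside 45.2% and 45.1% of all genes. In R1 the calls of Slc25a22, Slc25a23 and Slc25a42 ended after centring (limma adjusted p = 0.225, 0.103 and 0.347) and without single R1 or Control libraries (up to 0.0938, 0.0899 and 0.182). In R2 that of Slc25a23 ended after centring (0.0747) and without Control replicate 1 (0.0539).

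Other carriers stayed well below Control in both groups. Slc7a10 had 62.37, 59.77 and 73.48 FPKM in R1 and 54.11, 59.98 and 74.65 in R2, above MMS D14 by 1.79 ± 0.21 and 1.73 ± 0.21 and below Control by more than the spread between samples (-1.18 ± 0.21 and -1.24 ± 0.21, limma adjusted p = 0.00033 and 0.00028). Slc2a4 had 49.88, 42.81 and 55.68 FPKM in R1 and 43.33, 46.54 and 50.91 in R2, above all MMS D14 and below all Control samples. Slc1a5 had 421.2, 405.1 and 447.5 FPKM in R1 and 382.1, 432.2 and 477.9 in R2, and it differed from MMS D14 by 1.44 ± 0.17 and 1.46 ± 0.17. Slc9a3r2 had 57.45, 59.08 and 64.10 FPKM in R1 and 59.61, 61.65 and 75.97 in R2 against 58.73, 62.08 and 63.32 in Control (changes -0.03 ± 0.16 and 0.09 ± 0.16, limma adjusted p = 0.89 and 0.62). For Slc22a3 neither group passed the test against MMS D14 (0.07 ± 0.22 and 0.27 ± 0.22, limma adjusted p = 0.76 and 0.25). Against Control it was lower in R1 (8.70, 7.75 and 7.80 FPKM; change -0.80 ± 0.22, limma adjusted p = 0.0057) and in R2 (7.51, 8.21 and 13.40 FPKM; change -0.60 ± 0.22, 0.0281). The call in R2 ended after centring (0.152) and without Control replicate 3 (0.122), R2 replicate 1 (0.135) or R2 replicate 2 (0.101).

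Other transport genes of the synovium table, which are channels, pumps, aquaporins and carriers without an Slc symbol, numbered 20, of which 3 were higher and 17 lower in MMS D14 than in Control, beside 27.7% and 69.3% of all genes. Aqp7, the aquaglyceroporin through which fat cells release glycerol, had 7.99 ± 1.94 FPKM in MMS D14 and 54.3 ± 7.95 in Control (SD, n = 3 each; change -2.63, limma adjusted p = 7.6e-09). The potassium channel gene Kcnj15 changed by 1.92. Of 32 listed partners of carriers 11 were measured, with 2 higher and 9 lower in MMS D14, in the same table where nearly all genes are called. Phgdh, the first enzyme of serine synthesis, had 23.1 ± 1.84 FPKM in MMS D14 and 88.4 ± 11.4 in Control (SD, n = 3 each; change -1.89, limma adjusted p = 3.8e-08).

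In cartilage, few Slc genes were called in the early MMS groups. Of all genes 22%, 22.4%, 40.6% and 99% differed at least 1.5-fold from Control in MMS D3, MMS D7, MMS D14 and MMS D28. Fewer calls before MMS D28 therefore say little about Slc genes in particular. In MMS D3 4 of 24 rose and 2 fell, beside 12.9% of all genes higher and 11% lower. In MMS D7 1 rose and 3 fell, beside 6.79% higher and 15.6% lower. In MMS D14 5 rose and 2 fell, beside 25.5% higher and 28% lower. All 24 were called in MMS D28, 13 higher and 11 lower, beside 42.7% higher and 54.6% lower. The median change of Slc genes was 0.53 in MMS D28 and that of all genes was -0.49. As nearly every listed gene differs at least 1.5-fold up or down here, these medians follow which direction holds more genes. Each group had 2 samples, and leaving out 1 library left 2 of the 6 calls in MMS D3 without Control replicate 2 or MMS D3 replicate 2. It left 1 of 4 calls in MMS D7 without either Control replicate and 2 without MMS D7 replicate 1, and 3 of 7 in MMS D14 without Control replicate 1 or MMS D14 replicate 2. In MMS D28 15 of the 24 calls held under every alternative. Centring moved the changes by -0.04, 0.11, 0.08 and 0.17, after which 13 Slc genes rose and 8 fell in MMS D28. Of all 1606 genes 699 then rose and 770 fell there. Cell markers also differed between the groups. Neutrophil markers, 8 of 8 measured, summed to 46948 to 61245 in MMS D28 against 29754 to 30214 in Control, with all 8 called higher. Blood cell markers were thus measured beside those of chondrocytes. Of 7 B cell markers 6 were measured and lower, and 6 of 9 chondrocyte markers were measured and lower, with sums of 369 to 715 in MMS D28 against 940 to 1292 in Control. All 8 measured osteoblast markers were lower, with 2020 to 3372 against 5579 to 5833. The part of these cell types in the Slc changes was not tested.

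**Figure D3:**
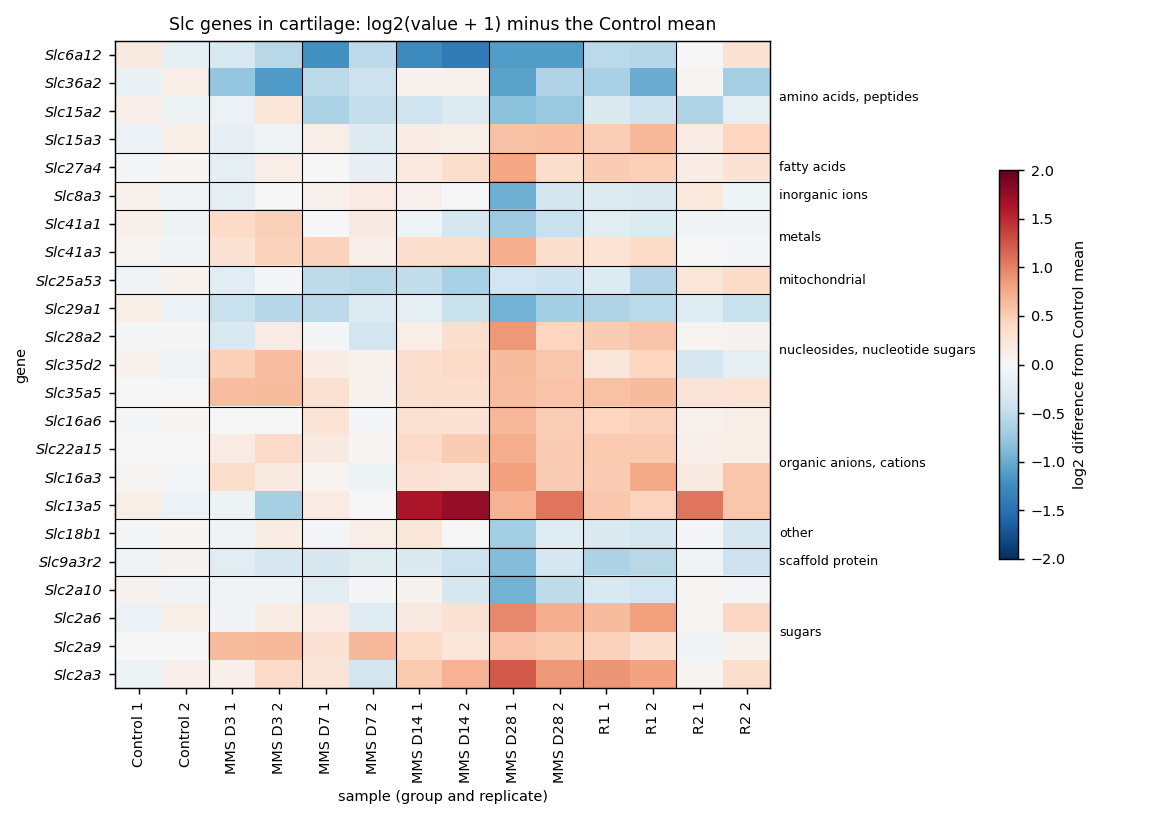
Slc genes of cartilage described in the text, by class (rows) in each of 14 samples (columns), as log2(signal + 1) minus the mean of the 2 Control samples; red is higher and blue lower than that mean. Most rows are strongest in MMS D28, Slc13a5 is strongest in MMS D14, and no Slc gene of R2 was called against Control.

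Of the 4 sugar carriers in cartilage 3 rose and 1 fell in MMS D28, where 42.7% of all genes were higher and 54.6% lower. Slc2a3, which encodes the high-affinity glucose carrier GLUT3, had 26.37 and 30.31 in Control, 30.32 and 37.27 in MMS D3, 33.84 and 21.64 in MMS D7, 41.01 and 46.63 in MMS D14, and 67.52 and 52.65 in MMS D28. MMS D7 straddled the Control level and MMS D3 began just above it, and neither passed the test (0.24 ± 0.21 and -0.06 ± 0.21 in MMS D3 and MMS D7). It rose in MMS D14 (0.61 ± 0.21, limma adjusted p = 0.025) and MMS D28 (1.05 ± 0.21, 0.00084). The call in MMS D14 ended without Control replicate 1 (0.141) or MMS D14 replicate 2 (0.143). Slc2a6, which encodes GLUT6 of lysosomes, known from macrophages, had 20.91 and 17.64 in MMS D28 against 9.30 and 11.19 in Control (change 0.85 ± 0.18, limma adjusted p = 0.0012). Slc2a9, a urate and glucose carrier, had 1.53 and 1.48 in Control, 2.87 and 2.91 in MMS D3, 2.07 and 2.92 in MMS D7, 2.28 and 1.96 in MMS D14, and 2.73 and 2.60 in MMS D28. It was already above Control in MMS D3 (0.64 ± 0.13, limma adjusted p = 0.0047), and it rose by 0.55 ± 0.13 in MMS D28 (0.0018). Slc2a10, the dehydroascorbate and glucose carrier GLUT10 of connective tissue, fell in MMS D28, with 2.35 and 3.56 against 5.83 and 5.13 in Control (change -0.73 ± 0.17, limma adjusted p = 0.0018).

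All 4 carriers of organic anions and monocarboxylates rose in MMS D28, beside 42.7% of all genes higher and 54.6% lower. Slc16a3, which encodes MCT4, the lactate exporter of glycolytic cells, had 73.90 and 59.24 in MMS D28 against 42.46 and 40.68 in Control (change 0.66 ± 0.16, limma adjusted p = 0.0026). In MMS D3, MMS D7 and MMS D14 it changed by 0.26, -0.03 and 0.28, which did not pass the test. In R1 Slc16a3 had 59.20 and 70.89, which overlapped with MMS D28. It was higher there than in Control (change 0.63, limma adjusted p = 0.00756), a call that ended without R1 replicate 2. Slc16a6, which encodes MCT7, had 25.45 and 22.47 in MMS D28 against 15.26 and 16.27 in Control (change 0.57 ± 0.13, limma adjusted p = 0.0017). Slc22a15 had 4.62 and 3.83 against 2.42 and 2.39 (change 0.61 ± 0.12, limma adjusted p = 0.00095).

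Slc13a5, which encodes NaCT, the sodium-coupled importer of citrate at the cell surface, had its highest level in MMS D14. It had 2.85 and 2.30 in Control, 2.33 and 1.26 in MMS D3, 2.99 and 2.57 in MMS D7, 10.06 and 11.01 in MMS D14, and 4.78 and 6.47 in MMS D28. No sample of another group reached the level of the MMS D14 pair. The change was 1.69 ± 0.21 in MMS D14 and 0.88 ± 0.21 in MMS D28 (limma adjusted p = 6.2e-05 and 0.0021), and both calls held under every alternative. MMS D28 and MMS D14 were not compared with each other. In R2 it had 6.47 and 4.22, above both Control samples, but the change did not pass the test (0.81 ± 0.21, limma adjusted p = 0.090).

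Slc16a3 also lies on chromosome 11 (GRCm38, 120948480 to 120960868, plus strand). Its promoter is printed because the gene is a known target of hypoxia signalling and bears 2 copies of the core of the hypoxia response element, ACGTG, which are in capitals. The 300 bases run 5′ to 3′ on the plus strand, chr11:120948817-120949116, from 250 bases before to 50 after a RefSeq start (RefSeq, GRCm38.p6), and both strands were searched.
Slc16a3: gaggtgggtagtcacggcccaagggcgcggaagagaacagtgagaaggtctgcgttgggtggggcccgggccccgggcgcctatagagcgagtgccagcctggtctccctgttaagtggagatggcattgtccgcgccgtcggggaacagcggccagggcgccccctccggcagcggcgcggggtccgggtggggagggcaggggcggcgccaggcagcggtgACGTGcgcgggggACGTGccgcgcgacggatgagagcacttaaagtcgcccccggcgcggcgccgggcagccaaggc
The copies begin 27 and 14 bases before the start. The core was in 6447 of 32851 mouse promoters of this length (19.6%) and in 17 of the 62 promoters of Slc genes (27.4%), from 15 genes. Those genes include Slc35a5, which rose in MMS D28, and Slc2a10 and Slc29a1, which fell. A stretch CACGTG matches on both strands.

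**Figure D4:**
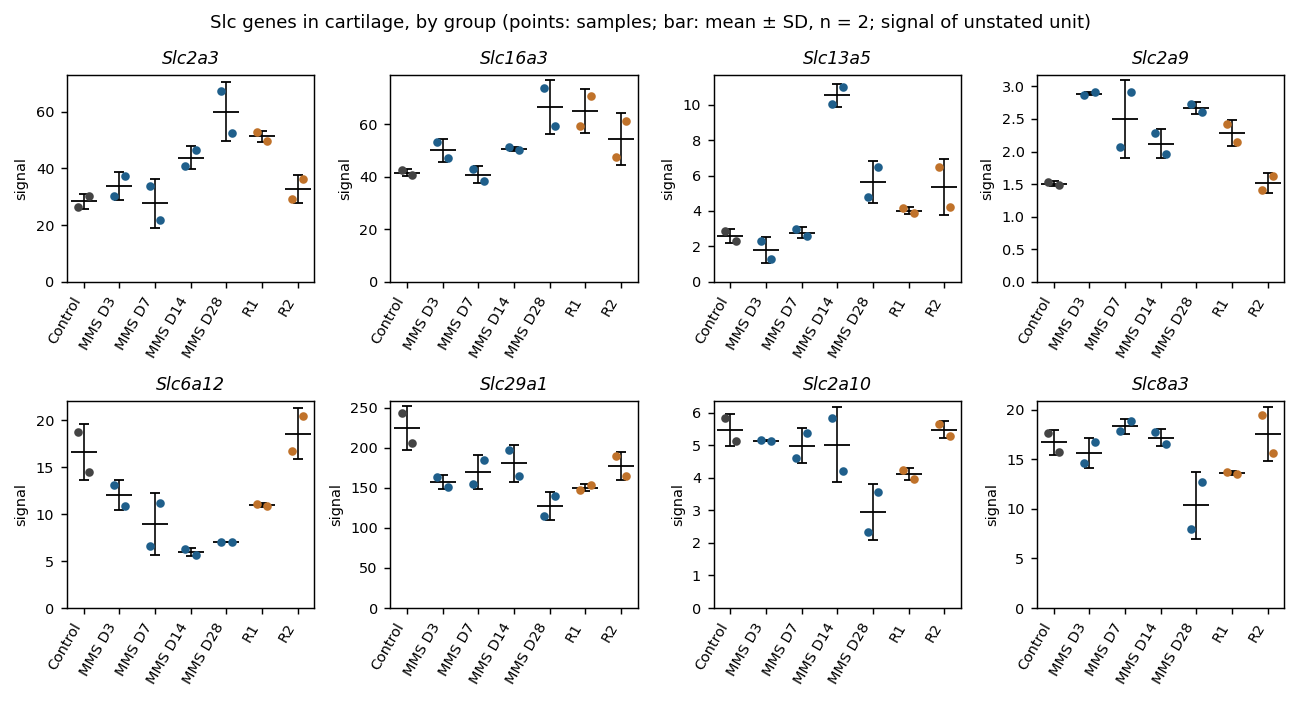
Normalised signal of unstated unit (vertical axis, linear from 0) of 8 Slc genes in the 7 cartilage groups, with points for samples and bars for mean ± SD (n = 2). Slc2a3 and Slc16a3 have their highest mean in MMS D28, where they overlap with R1. Slc13a5 is highest in MMS D14, and Slc6a12 is low from MMS D7 to MMS D28 and overlaps with Control in R2.

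Of the 4 amino acid and peptide carriers of cartilage 3 fell in MMS D28, beside 54.6% of all genes. Slc6a12, which encodes the betaine and GABA carrier BGT1 that responds to osmotic stress, had 18.75 and 14.54 in Control, 13.16 and 10.88 in MMS D3, 6.57 and 11.24 in MMS D7, 6.24 and 5.66 in MMS D14, and 7.07 and 7.07 in MMS D28. All MMS samples lay below both Control samples, with changes of -0.43 ± 0.21, -0.86 ± 0.21, -1.34 ± 0.21 and -1.12 ± 0.21. MMS D3 did not pass the test (limma adjusted p = 0.14), and MMS D7, MMS D14 and MMS D28 did (0.010, 0.00032 and 0.00064). The call in MMS D7 ended without MMS D7 replicate 1 (change -0.52, 0.0992) or Control replicate 1 (0.101). Slc6a12 lies on chromosome 6, 5342 bases downstream of Slc6a13, which was in the synovium table and fell there.

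The peptide carriers moved apart. Slc15a2, which encodes PEPT2, the carrier of short peptides, had 3.78 and 4.03 in MMS D28 against 8.05 and 6.86 in Control (change -0.78 ± 0.17, limma adjusted p = 0.0013). Slc15a3, which encodes PHT2, a lysosomal histidine and peptide carrier of immune cells, had 22.16 and 22.40 against 13.30 and 15.75 (change 0.59 ± 0.16, limma adjusted p = 0.0037). Both calls held under every alternative.

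Nucleoside carriers were also of both directions. Slc29a1, which encodes the equilibrative nucleoside carrier ENT1, had 115.3 and 139.7 in MMS D28 against 243.6 and 205.5 in Control (change -0.81 ± 0.16, limma adjusted p = 0.00093). Its fall of 0.51 in MMS D3 (0.041) lost the call without any 1 of the 4 libraries (0.0859 to 0.241). Slc35a5 and Slc35d2, members of the nucleotide sugar carrier family of the Golgi, rose in MMS D3 and were not called in MMS D7. Slc35a5 had 9.84 and 9.98 in MMS D3 against 6.14 and 6.02 in Control (change 0.62 ± 0.12, limma adjusted p = 0.0039), and 9.89 and 9.50 in MMS D28 (0.59 ± 0.12). Slc35d2 had 4.59 and 5.18 in MMS D3 against 3.20 and 2.84 in Control (0.55 ± 0.12, limma adjusted p = 0.0083), a call that ended without Control replicate 2 (0.0864) or MMS D3 replicate 2 (0.0792). In MMS D28 its change was 0.58 ± 0.12 (0.0012). In MMS D7 Slc35a5 had 7.76 and 6.43, and Slc35d2 had 3.47 and 3.28. In MMS D14 they rose by 0.33 and 0.37 (limma adjusted p = 0.0346 and 0.0243). Both MMS D14 calls ended without any single library of MMS D14 or Control.

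The magnesium carriers Slc41a1 and Slc41a3 were the metal carriers of this table. Slc41a1, a magnesium and sodium exchanger, had 11.88 and 10.26 in Control, 14.81 and 15.67 in MMS D3, 11.15 and 12.59 in MMS D7, 10.34 and 8.51 in MMS D14, and 6.25 and 7.86 in MMS D28. Its fall in MMS D28 passed the test (-0.59 ± 0.14, limma adjusted p = 0.0025). Its rise in MMS D3 (0.43 ± 0.14, 0.048) ended without any 1 of the 4 libraries (0.0808 to 0.271), after centring (0.0514) and with a pseudocount of 0.1 (0.0548). For Slc41a3, Slc27a4 (the fatty acid transport protein FATP4), Slc8a3 (the sodium and calcium exchanger NCX3), Slc36a2, Slc28a2, Slc9a3r2 and Slc18b1 (a vesicular polyamine carrier), the call in MMS D28 ended without MMS D28 replicate 1, at limma adjusted p = 0.0927, 0.0655, 0.0538, 0.0546, 0.0690, 0.0617 and 0.183. Slc8a3 had 7.99 and 12.74 in MMS D28 against 17.61 and 15.77 in Control, and its change was -0.67 with replicate 1 and -0.36 without it. MMS D28 replicate 1 held the value farther from Control for each of the 7 genes. The mitochondrial carrier gene Slc25a53 had 1.41 and 1.34 in MMS D7 and 1.44 and 1.18 in MMS D14, against 2.27 and 2.58 in Control. Its change in MMS D7 was -0.53 (limma adjusted p = 0.0116), a call that ended without Control replicate 2. The lower call in MMS D14 held under every alternative. In MMS D28 Slc25a53 had 1.62 and 1.57 and fell by 0.40. That call ended after centring (limma adjusted p = 0.104) and without Control replicate 2.

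In R1 cartilage, 11 Slc genes were higher and 5 lower than in Control, beside 36% of all genes higher and 33.3% lower. After centring 13 were higher and 3 lower, beside 624 and 308 of all 1606 genes. Leaving out 1 library at a time left 6 to 9 of these 16 calls (7 and 9 without Control replicates 1 and 2, and 9 and 6 without R1 replicates 1 and 2), and 3 held under every alternative, those of Slc2a3, Slc22a15 and Slc35a5. Slc2a3 had 52.78 and 49.86 in R1 against 26.37 and 30.31 in Control (change 0.84 ± 0.21, limma adjusted p = 0.0064). Slc35a5 had 9.62 and 10.01 against 6.14 and 6.02 (change 0.61 ± 0.12, limma adjusted p = 0.0029). Against MMS D28, 0 of 24 Slc genes were called in R1, beside 6.1% of all genes higher and 1.49% lower. By limma without the variance trend the count was also 0. An unadjusted limma p under 0.05 was found for 4 Slc genes, beside 444 of all 1606 genes. Without MMS D28 replicate 2 some Slc genes were called. Neutrophil markers summed to 54219 to 55789 in R1, within the MMS D28 range, with 8 of 8 higher than in Control. B cell markers summed to 289 to 321 in R1 against 605 to 647 in Control, with 6 of 6 lower, and 6 of 8 osteoblast markers were lower.

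No Slc gene of R2 cartilage was called against Control. There 0 of 24 passed, beside 0.0623% of all genes higher and 0.685% lower. An unadjusted limma p under 0.05 was found for 6 Slc genes, beside 251 of all 1606 genes. Limma without the variance trend also called 0. R2 against MMS D28 uses the same MMS D28 samples as MMS D28 against Control, in which nearly all listed genes differ. A call here therefore says little beyond direction and size. Against MMS D28, 8 Slc genes were higher and 9 lower in R2, beside 41.8% of all genes higher and 37.2% lower. After centring, which moved the changes by -0.12, 5 were higher and 11 lower, and without MMS D28 replicate 1 there were 4 and 4. Of all 1606 genes 525 were higher and 649 lower after centring. The calls of 8 Slc genes held under every alternative. Slc6a12 had 16.69 and 20.50 in R2 against 7.07 and 7.07 in MMS D28 (change 1.27 ± 0.21, limma adjusted p = 0.00042). Slc35d2 had 2.19 and 2.50 in R2 against 5.20 and 4.81 in MMS D28 (change -0.84 ± 0.12, limma adjusted p = 0.00020), below both Control samples. Slc25a53 had 3.03 and 3.45 against 1.62 and 1.57 (0.71 ± 0.13), above both Control samples. Slc2a3 had 29.38 and 36.24 in R2 against 67.52 and 52.65 in MMS D28 (change -0.85 ± 0.21, limma adjusted p = 0.0038). Slc2a10 and Slc8a3 were higher than in MMS D28, by 0.73 ± 0.17 and 0.73 ± 0.18, and for Slc8a3 the change was 0.42 without MMS D28 replicate 1 (limma adjusted p = 0.049).

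Other transport genes of the cartilage table numbered 25, of which 16 were higher and 9 lower in MMS D28 than in Control, beside 42.7% and 54.6% of all genes. Trpv4, a mechanically and osmotically gated calcium channel of chondrocytes, had 22.3 ± 1.32 in MMS D28 and 38.9 ± 6.65 in Control (SD, n = 2 each; change -0.76, limma adjusted p = 0.0019). Of the 32 partners 10 were measured, 7 higher and 3 lower. Emb had 101 ± 16.6 in MMS D28 and 53.4 ± 5.78 in Control (change 0.89, limma adjusted p = 0.00036). Hk2 was higher in MMS D28 cartilage (0.62, limma adjusted p = 0.00069), as was Phgdh (0.72, 0.00063).

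Values of 3 of the 4 genes in both tables are given side by side, since the tables were normalised separately and the tissues were not tested against each other. Slc36a2 was lower than Control in MMS D14 synovium (-1.87 ± 0.17) and in MMS D28 cartilage (-0.84 ± 0.24). In cartilage it had 8.93 and 12.65 in MMS D28 against 17.97 and 21.81 in Control. It was also lower in cartilage of MMS D3 (11.15 and 8.48, change -0.95, limma adjusted p = 0.014). In R1 cartilage it had 12.29 and 9.42 (change -0.82, limma adjusted p = 0.0112). Both calls ended without single libraries. In MMS D14 cartilage Slc36a2 had 20.76 and 21.06 against 17.97 and 21.81 in Control, and the change did not pass the test (0.07 ± 0.24, limma adjusted p = 0.79). Slc9a3r2 fell in MMS D14 synovium (-0.83 ± 0.16), a call that ended after centring (limma adjusted p = 0.0654). In MMS D14 cartilage it did not pass the test (-0.35 ± 0.17, limma adjusted p = 0.095). It was lower in cartilage of MMS D28 (-0.61, limma adjusted p = 0.0051) and R1 (-0.59, 0.0119), and both calls ended without single libraries. All MMS samples of cartilage lay below both Control samples (14.88 and 16.52). Slc28a2 was lower than Control in every synovium group, and in cartilage it had 16.95 and 19.52 in MMS D14, 28.86 and 21.03 in MMS D28, and 22.33 and 23.41 in R1, against 15.15 and 15.69 in Control. Its rise in R1 cartilage (0.54 ± 0.19, limma adjusted p = 0.025) ended without any 1 of the 4 libraries (0.0669 to 0.101).

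**Figure D5:**
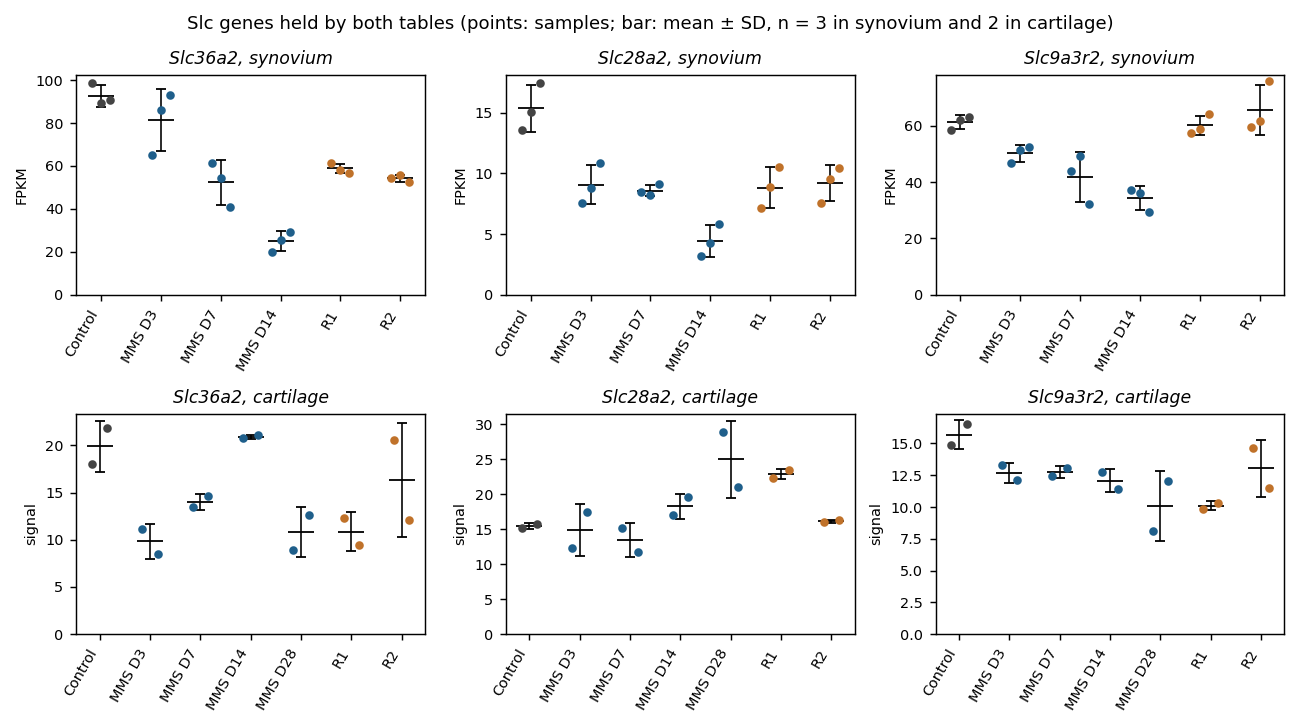
Levels of 3 of the 4 Slc genes held by both tables in synovium (upper row, FPKM, n = 3) and cartilage (lower row, normalised signal of unstated unit, n = 2), with points for samples and bars for mean ± SD. Slc28a2 is below Control in every synovium group and above it in MMS D28 and R1 cartilage.

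Exons of 15 of the 54 Slc genes overlap a gene on the opposite strand in GENCODE vM21, among them Slc7a10 (Lrp3), Slc5a6 (Atraid), Slc25a10 (Gm11788) and Slc29a1 (Gm17080). Whether counting used the strand is not given in the sources used here, so reads of these pairs may not be told apart.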

How the data were processed

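RNA was extracted with Trizol and libraries were made at BGI, per the labels' protocols, with alignment by HISAT2 to the mm10 build, per the submitters' processing notes. The deposited synovium values are FPKM per the file headers. The authors deposited cartilage values as a normalised signal of unknown unit. Total reads are not in the tables, so depth is unknown, and precision is given by the spread between samples and their number.

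The log2(value + 1) scale was fitted with limma 3.58.1 (R 4.3.3), all groups of a tissue in 1 fit with a variance trend, in 15 comparisons. Requiring a value of 1 or more in at least n samples, n being the size of the smallest group, removed 0 genes. The fit was tested on simulated data. Members, gene lists, classes and comparisons were chosen with earlier results of these data known. Genes given by sample were those in both tables, the 6 largest rises and 6 largest falls per tissue in MMS D14 synovium or MMS D28 cartilage against Control, and the smallest adjusted p of each class of 2 or more; other genes given by sample were chosen after their values were seen. Alternatives were no trend, no filter, a pseudocount of 0.1, centring samples on their medians, only the groups compared, the replicate number as a block, and leaving out each library. Added after seeing the data were leaving out the 5 synovium libraries that stand apart and a term for them. Positions are from GENCODE vM21 (GRCm38), where all 54 members matched. Python 3.11.15, pandas 2.3.3, numpy 2.4.6 and matplotlib 3.10.9 were used. A few genes that count among the members and lists are not reported here.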

Additional observations from a re-analysis of the deposited data

Results flagged for a closer look

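Slc28a2, the nucleoside carrier CNT2, lay on opposite sides of Control in the 2 tissues in MMS D14, R1 and R2, which are 3 of the 5 comparisons with Control that both tissues share. Its log2 change against Control in MMS D14 was -1.61 in synovium and 0.23 in cartilage. In R1 it was -0.74 in synovium and 0.54 in cartilage, and in R2 -0.69 in synovium and 0.059 in cartilage. All synovium samples of these groups lay below all Control samples, and all cartilage samples lay above both Control samples. In the other 2 its cartilage change was -0.07 in MMS D3, where 12.27 and 17.47 lay on both sides of Control, and -0.20 in MMS D7, where 15.09 and 11.68 lay below it as in synovium. The difference between tissues was not tested, because the tables were normalised separately. In cartilage the changes in MMS D14 and R2 did not pass the test, and the call in R1 ended without any single library of R1 or Control. Of the 50-base windows of the transcript 39.8% occur in the neighbouring copy Gm14085 as well.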

How the results depend on the processing

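Of 271 Slc calls over the 15 comparisons 91 ended under at least 1 alternative and 0 reversed. For synovium R1 against MMS D14, centring each sample on its median left 20 called Slc genes in place of 31. For cartilage R2 against MMS D28, using only the groups compared left 10 in place of 17. Leaving out each library in turn gave 2 to 4 calls for MMS D3 in cartilage (6 with all libraries), 1 to 3 for MMS D7 (4), 3 to 5 for MMS D14 (7), 6 to 9 for R1 against Control (16), 0 to 3 for R1 against MMS D28 (0) and 8 to 20 for R2 against MMS D28 (17). No other count of calls in both directions together moved by over 1.5 times. Counts in 1 direction moved more: using only the groups compared left 9 of 15 lower calls in MMS D3 synovium and gave 9 lower calls in place of 5 in R1 cartilage against Control, and 7 of 11 lower calls in MMS D28 cartilage were left without MMS D28 replicate 1. The replicate number as a block gave 20 called Slc genes in MMS D3, 31 in MMS D7 and 34 in MMS D14 synovium, as without it. With the block there were 25 in place of 23 in R1 and 27 in place of 26 in R2 against Control. It moved no count of both directions together by over 1.5 times, and in cartilage it ended the calls of Slc29a1 (limma adjusted p = 0.0625) and Slc41a1 (0.0700) in MMS D3 and Slc35a5 (0.0518) in MMS D14. In synovium 26 of 45 same-numbered pairs of samples had deviations correlated over 0.1 (-0.17 to 0.66), and 11 of 18 samples correlated best with their own number. In cartilage 12 of 42 pairs did (-0.51 to 0.42), and 2 of 14 samples. The numbers were therefore not taken as pairs. Without the 5 set-apart libraries 4 of 197 synovium calls ended, and with a term for them 0 did. Depth is unknown, and 2 cartilage samples per group leave single libraries able to end a call.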
